A study of Mus musculus with 8 samples.

Results

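The REG family comprises small secreted C-type lectin proteins made in large amounts by the exocrine pancreas and the gut, and all 7 of its genes in the files were followed here: Reg1, Reg2, Reg3a, Reg3b, Reg3d, Reg3g and Reg4. They were found by gene symbol, 1 entry each, among 36432 gene IDs, without a threshold on measured values. The family was chosen with earlier results of these data known. Poly(A) RNA had been sequenced from 8 whole pancreas samples of mice of a mixed strain aged 6 to 8 weeks, each under its own title; p-values measure the spread between these samples. The 4 controls had the genotype Ptf1a-Cre +/KI, that is, a Cre recombinase gene knocked in at 1 allele of Ptf1a, a gene of pancreatic progenitors and acinar cells. The other 4 mice had the genotype Ptf1a-Cre +/KI; Gata6 lox/lox, so that Cre can delete Gata6, a zinc finger transcription factor, in cells that have made Cre. All 8 mice thus carried the Ptf1a knock-in, there was no group without Cre, and non-pancreatic cells in the tissue need not have lost Gata6. The study thus compares adult pancreas with and without a targeting of Gata6.

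Reg proteins are known as a family of secreted lectins whose transcripts in acinar cells rise in pancreatitis and other injury. Reg1 and Reg2 encode the pancreatic stone proteins, also called lithostathines, which are carried in pancreatic juice. The Reg3 proteins include the pancreatitis-associated protein Reg3b and the bactericidal intestinal lectin Reg3g, and their genes respond to cytokines that signal through gp130 or the IL-22 receptor to the transcription factor STAT3. EXTL3, an exostosin-like glycosyltransferase of the cell surface and endoplasmic reticulum, has been proposed as a receptor of Reg proteins.

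Levels are in rescaled FPKM: the authors' FPKM, whose sums per library are far from equal, was divided by 100000, so 1 rescaled FPKM is no fixed number of transcripts. FPKM is per length of transcript, so levels can be set side by side between genes. The intervals deposited with the values imply 6016821 to 7299502 fragments per control library and 4811619 to 7420118 in the other group. Gata6 itself had 2.12 to 2.76 rescaled FPKM in controls and 4.12 to 5.12 in the 4 libraries of the second group. It was thus higher where it was targeted (log2 fold change 0.72, SE 0.11, adjusted p = 0.0443 in limma). The exact permutation test gave p = 0.0286. Its level did not check the label of these 4 libraries, and they are called labelled libraries 1 to 4. A gene-level FPKM does not resolve the floxed part of Gata6, so these values do not measure the deletion. The labelled libraries differed widely from each other. For 20 digestive enzyme genes, the median log2 difference from the control mean lay between -0.31 and 0.33 in each control, but was -6.75, -1.09, -3.25 and -0.67 in labelled libraries 1 to 4. Titles beginning with BKD belonged to control 1 and labelled libraries 1, 3 and 4, ASK to controls 2 to 4 and BSH to labelled library 2. What these letters stand for is not given in the sources used here, and they are partly confounded with genotype.

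Apart from Reg4, the genes lie in 1 cluster of 6 on chromosome 6, in the order Reg3b, Reg3d, Reg3a, Reg2, Reg1 and Reg3g, over 97990 bases (mm9, 78320879 to 78418868), with no other annotated entry between them. Within it Reg3b spans 78320879 to 78323460, Reg3d 78325868 to 78328859, Reg3a 78330703 to 78333833, Reg2 78355149 to 78358091, Reg1 78375974 to 78378661 and Reg3g 78416262 to 78418868. The nearest entry before the cluster was Gm5576, 153589 bases away, at 0.0144 to 0.134 rescaled FPKM, and the nearest after it, a U1 small nuclear RNA entry 442293 bases away, was listed at 0 in all 8 libraries. Reg4 lies alone on chromosome 3 (mm9, 98026079 to 98040671). Paralogs can share reads, so their transcripts were compared in the GENCODE M21 annotation. Aligned end to end, the Reg1 and Reg2 transcripts were 67.7% identical, Reg3b and Reg3g 67.2%, Reg3a and Reg3b 66.7%, and Reg1 and Reg3b 54.3%. The longest stretch shared by any 2 members was 35 bases, between Reg3b and Reg3g, and Reg1 and Reg2 shared at most 19. No stretch of 50 bases was common to 2 members, while 3.65% of such stretches of Reg1 and 4.34% of Reg2 were also found in other genes. The read length is not given in the sources used here.

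The start regions of 4 members are shown: Reg1 and Reg2 are the most abundant pair, and Reg3b and Reg3g have the most similar start regions of the cluster but different levels across libraries. Each sequence is the 250 bases before the annotated start, on the strand of the gene, from RefSeq on GRCm38.p6, a build other than that of the files. They lie at chr6:78425733-78425982 for Reg1, chr6:78404905-78405154 for Reg2 and chr6:78370635-78370884 for Reg3b, on the plus strand, and at chr6:78468875-78469124 for Reg3g, on the minus strand. Capitals mark letters that match a motif searched on both strands.
Reg1: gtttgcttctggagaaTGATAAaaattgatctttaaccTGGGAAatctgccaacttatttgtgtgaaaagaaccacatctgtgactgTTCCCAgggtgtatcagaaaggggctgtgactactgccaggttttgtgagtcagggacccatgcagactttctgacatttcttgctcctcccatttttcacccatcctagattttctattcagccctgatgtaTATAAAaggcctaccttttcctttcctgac
Reg2: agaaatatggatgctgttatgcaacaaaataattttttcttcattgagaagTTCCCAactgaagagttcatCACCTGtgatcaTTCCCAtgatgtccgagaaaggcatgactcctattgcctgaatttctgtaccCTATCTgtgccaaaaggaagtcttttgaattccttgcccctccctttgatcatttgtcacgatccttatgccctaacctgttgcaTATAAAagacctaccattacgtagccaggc
Reg3b: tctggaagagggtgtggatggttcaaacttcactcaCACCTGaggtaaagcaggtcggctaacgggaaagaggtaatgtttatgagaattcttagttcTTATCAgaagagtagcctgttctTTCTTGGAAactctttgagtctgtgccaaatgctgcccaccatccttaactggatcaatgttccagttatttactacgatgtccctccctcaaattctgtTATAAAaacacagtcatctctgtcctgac
Reg3g: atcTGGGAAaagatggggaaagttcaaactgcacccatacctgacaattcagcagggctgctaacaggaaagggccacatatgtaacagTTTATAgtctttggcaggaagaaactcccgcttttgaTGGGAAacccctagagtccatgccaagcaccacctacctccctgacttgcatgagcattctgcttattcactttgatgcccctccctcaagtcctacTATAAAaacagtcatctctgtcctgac

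The motifs were the E-box CACCTG and the RBPJ core TGGGAA, whose binding proteins join in the acinar complex PTF1, the STAT site TTCNNNGAA, the TATA box TATAAA, the NR5A2 half-site AAGGTCA and the GATA sites AGATAA, with the variant TGATAA, and AGATAG, with the variant TGATAG. All 7 members were matched in the RefSeq table. CACCTG was present before Reg2, Reg3a, Reg3b, Reg3d and Reg4 (5 of 7), against 17.2% of 32851 start regions of the same length. TGGGAA was present before Reg1, Reg2, Reg3a, Reg3d and Reg3g (5 of 7), against 21.6% of all. A GATA site of any of the 4 forms was present before Reg1, Reg2, Reg3a, Reg3b and Reg4 (5 of 7), against 26.5% of all. TTCNNNGAA was present before Reg3b and Reg3d (7.02% of all), and in Reg3d it overlaps a TGGGAA match. TATAAA was present before Reg1, Reg2, Reg3b and Reg3g (12.4% of all). AAGGTCA matched no member (4.08% of all). Before Reg4 the CACCTG and TGATAA matches overlap. The start regions of Reg3b and Reg3g were 68.4% identical, those of Reg1 and Reg2 54.4%, and those of Reg1 and Reg3b 47.1%. These matches describe letters, and no binding was measured.

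Reg1, the pancreatic stone protein of acinar cells, was the most abundant member in 7 of 8 libraries. Controls 1 to 4 stood at 33746, 30164, 38147 and 28518 rescaled FPKM (mean 32644 ± 4269, SD, n = 4), where it ranked between 8 and 20 among all genes with an estimate. The labelled libraries stood at 656, 15478, 6078 and 34909 (mean 14280 ± 15054, SD, n = 4). Libraries 1, 2 and 3 lay below every control and library 4 within the range of the controls, so the groups overlapped. The controls thus differed by at most 1.34-fold and the labelled libraries by 53.2-fold. In labelled library 1, where the enzymes were lowest, Reg1 ranked 42. Each of these Reg1 values rested on 15782 to 241751 implied fragments.

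Reg2, its closest relative by transcript sequence and also known from islets, was ordered differently from Reg1 in the controls. It stood at 6106, 5965, 7962 and 21236 rescaled FPKM in controls 1 to 4 and at 188, 12909, 6131 and 10559 in labelled libraries 1 to 4. Control 4 had 3.18 times the mean of the other 3 controls (6678 ± 1115, SD, n = 3) for Reg2, while its Reg1 was the lowest of the controls. Labelled library 1 alone lay below the controls, and libraries 2 and 4 lay between controls 3 and 4. The group means were 10317 ± 7336 and 7447 ± 5596 (SD, n = 4 each).

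Reg3b, the pancreatitis-associated protein, varied most among the controls. The values were 1056, 404, 636 and 6584 rescaled FPKM in controls 1 to 4 and 91.3, 583, 2212 and 3305 in labelled libraries 1 to 4. Control 4 was 9.42 times the mean of the other controls (699 ± 331, SD, n = 3) and above every labelled library. The coefficient of variation was 136% in controls and 95.7% in the labelled libraries.

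Reg3a, of the same cluster, also had its highest value in control 4 and its lowest in labelled library 1. It stood at 157, 100, 211 and 1418 rescaled FPKM in controls 1 to 4, where control 4 was 9.09 times the mean of the others (156 ± 55.6, SD, n = 3). Labelled libraries 1 to 4 had 19.6, 424, 671 and 887. Libraries 2 to 4 lay above controls 1 to 3 and below control 4, and library 1 below every control.

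Reg3g, the bactericidal lectin, was the lowest of the Reg3 genes in controls and the member nearest to its control level in labelled library 1. The values were 66.8, 70.4, 42.0 and 325 rescaled FPKM in controls 1 to 4 and 46.0, 95.3, 373 and 313 in labelled libraries 1 to 4. Control 4 was 5.45 times the mean of the others (59.7 ± 15.4, SD, n = 3). Labelled libraries 3 and 4 were near control 4, library 2 was somewhat above controls 1 to 3, and library 1 lay among those 3.

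Reg3d, which is related to the islet neogenesis-associated protein of hamsters, kept closer to Reg1 than the other Reg3 genes did. Its profile over the 8 libraries was nearer still to that of Reg2. Reg3d stood at 662, 471, 669 and 1172 rescaled FPKM in controls 1 to 4, where the coefficient of variation was 40.4%, and at 10.3, 427, 329 and 916 in labelled libraries 1 to 4. Libraries 1, 2 and 3 lay below every control, as they did for Reg1, and library 4 between controls 3 and 4.

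Reg4, a member known from the gut, was not detectable at this depth in 6 of the 8 libraries and rested on 1 implied fragment each in labelled library 1 (0.0268 rescaled FPKM) and library 3 (0.0315). Where it was listed at 0, 3 fragments would have given 0.251 to 0.394 rescaled FPKM, counting error only. It did not reach the expression minimum and was not tested.

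**Figure D1:**
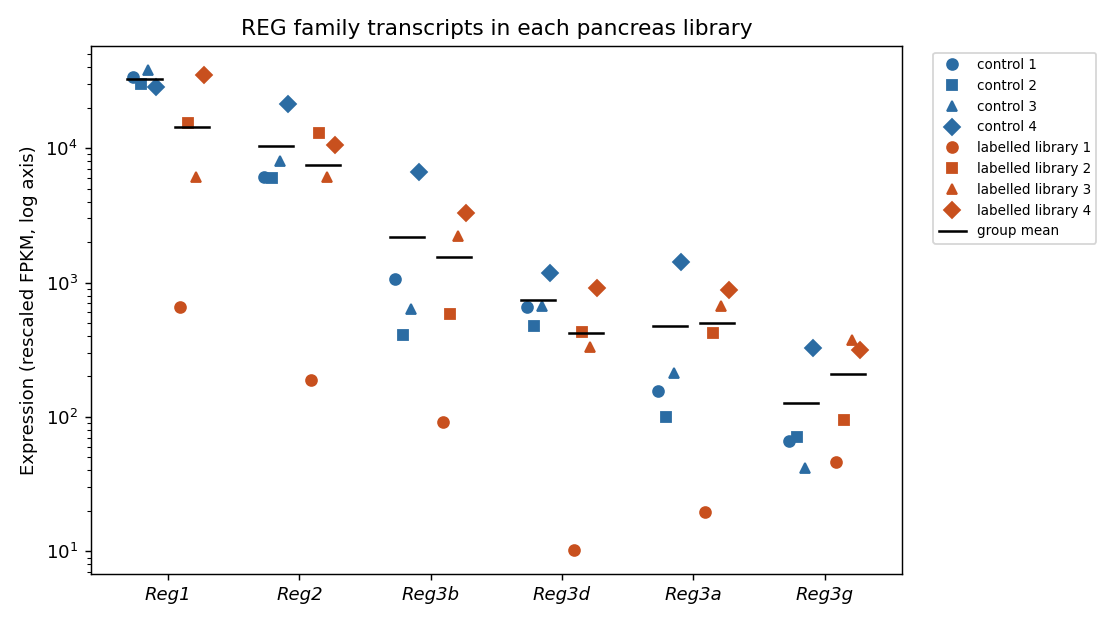
Rescaled FPKM (log axis) of the 6 REG genes that were tested, with 1 point per library, controls in blue and labelled libraries in orange, and a bar at the mean of each group. Labelled library 1 is the lowest point for every gene but Reg3g, and control 4 is the highest control for every gene but Reg1.

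None of the REG genes passed the test between the groups. At an adjusted p under 0.05 (limma, Benjamini-Hochberg over all genes), 0 of 6 tested members passed, against 0.413% of 11860 genes (0.219% higher and 0.194% lower). At an unadjusted p under 0.05 there were 0 of 6, against 30.1% of all genes (17.9% higher and 12.2% lower). Groups without overlap were found in 0 of 6, against 18.5% of all genes (10.9% higher and 7.62% lower). The median log2 fold change of the 6, labelled minus control, was -0.93, with 4 negative and 2 positive values, and that of all genes tested was 0.10. The exact two-sided permutation test of 4 against 4 libraries gave 0 of 6 under 0.05 as well; the smallest p it can give is 0.0286.

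The intervals were wide. For Reg1 the log2 fold change was -2.25 (SE 1.12, 95% interval -4.81 to 0.31), with adjusted p = 0.202 in limma and p = 0.114 in the exact permutation test. For Reg3d it was -1.85 (SE 1.23, interval -4.67 to 0.97; adjusted p = 0.316 in limma). For Reg2 it was -1.32 (interval -4.31 to 1.66; adjusted p = 0.482 in limma), and without labelled library 1 it was 0.09. Reg3b had -0.55 (interval -3.43 to 2.34; adjusted p = 0.777 in limma), which turned to 0.29 without control 4 and to 0.49 without labelled library 1. Reg3a had 0.03 (interval -2.93 to 2.99; adjusted p = 0.988 in limma). Reg3g had 0.74 (interval -1.15 to 2.63; adjusted p = 0.537 in limma), and 1.36 without control 4. The intervals of Reg3a and Reg3b thus hold changes of 4-fold in either direction.

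The sign of the difference depended on how libraries were scaled for 2 genes beside Reg3a, whose value lay near 0. Scaled to an equal sum of FPKM outside the digestive enzymes, and to the implied fragment totals, the median of all genes moved from 0.10 to 0.85 and 1.12. Reg3b then had 0.45 and 0.84, Reg3a 1.02 and 1.41 and Reg3g 1.73 and 2.12. Reg2 had -0.32 and 0.07. Reg1 had -1.25 and -0.86 and Reg3d -0.87 and -0.48, negative as before. The adjusted p values of Reg3g under the 2 scalings were 0.0853 and 0.0546 in limma. On the deposited scale they were 0.273 to 0.841 when 1 library was left out. At an unadjusted p under 0.05 in limma, Reg3g alone of 6 members passed under each scaling. Over all genes 5605 of 12762 and 8424 of 13168 did so. With the title prefix as a covariate, BKD against ASK and BSH pooled, the values were -1.88 for Reg1, -0.52 for Reg2 and 0.50 for Reg3a. They were -0.65 for Reg3b, -1.44 for Reg3d and 0.66 for Reg3g. Within the BKD titles (1 control, 3 labelled) they were -2.70, -1.41, 0.55, -0.27, -2.14 and 1.38, and within the titles with ASK or BSH (3 controls, 1 labelled) -1.05, 0.36, 0.45, -1.03, -0.75 and -0.06, in the same order. The lone library of each such fit is assumed to vary like the others.

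**Figure D2:**
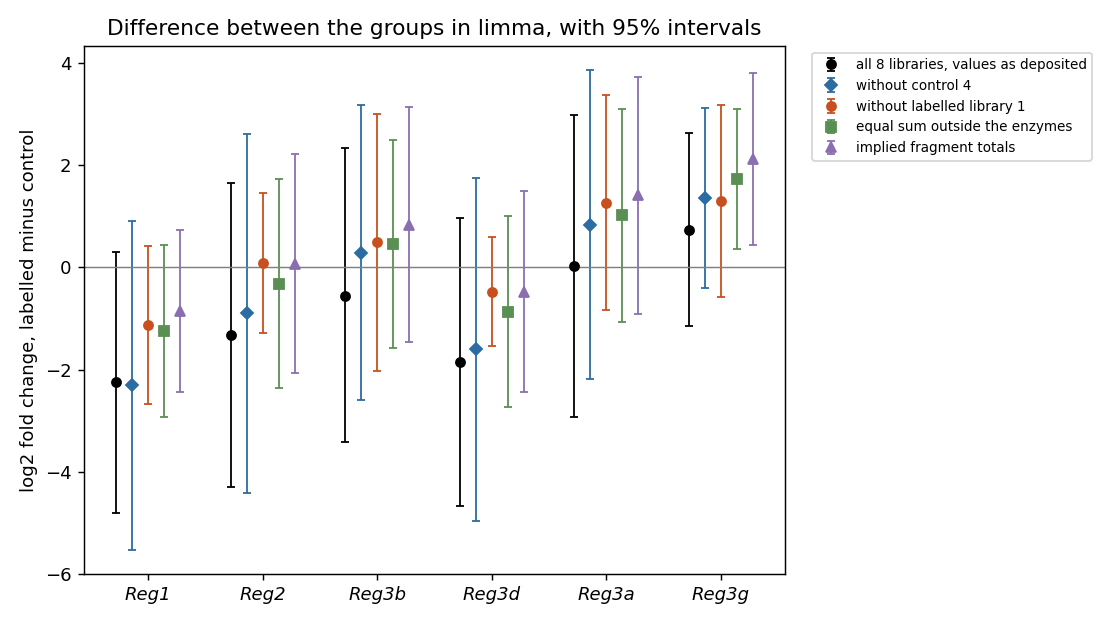
Log2 fold change of each tested REG gene, labelled minus control, with its 95% interval from limma, for all 8 libraries as deposited, without control 4, without labelled library 1, and under 2 other scalings. Of these intervals only those of Reg3g under the 2 scalings lie above 0. Under these scalings 5605 of 12762 and 8424 of 13168 genes had an unadjusted p under 0.05 in limma.

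The ratios between members within a library do not depend on scaling. The share of Reg1 in the family was higher in controls 1 to 3 than in the other 5 libraries, while other ratios, such as Reg1 to Reg3d, overlapped. In controls 1, 2 and 3 Reg1 made up 80.7%, 81.1% and 80.0% of the summed FPKM of the family and Reg2 14.6%, 16.0% and 16.7%. In control 4 their shares were 48.1% and 35.8%. Labelled libraries 1 to 4 had Reg1 shares of 64.9%, 51.7%, 38.5% and 68.6% and Reg2 shares of 18.6%, 43.1%, 38.8% and 20.7%. Reg1 was below its share of controls 1 to 3 in every labelled library, and Reg2 was as abundant as Reg1 in library 3 (ratio 0.991).

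The 4 Reg3 genes together made up 4.64%, 2.81%, 3.27% and 16.0% of the family in controls 1 to 4, and 16.5%, 5.11%, 22.7% and 10.7% in labelled libraries 1 to 4. Reg3b was the largest of them in 6 libraries, and Reg3d slightly exceeded it in controls 2 and 3, where the ratio of Reg3b to Reg3d was 0.857 and 0.951. Reg1 exceeded Reg3g 505, 429, 908 and 87.6 times in controls 1 to 4, and 14.3, 162, 16.3 and 112 times in labelled libraries 1 to 4. Labelled libraries 1 and 3, with the lowest enzymes, thus had the lowest Reg1 to Reg3g ratios. Reg3a and Reg3d, neighbours in the cluster, had a ratio of 0.237, 0.212, 0.316 and 1.21 in controls 1 to 4 and 1.91, 0.994, 2.04 and 0.968 in labelled libraries 1 to 4, so that every labelled library was above controls 1 to 3 and control 4 fell among the labelled libraries. As a share of all FPKM, the family came to 1.99% to 4.17% in controls and to 0.432%, 3.61%, 2.32% and 3.91% in labelled libraries 1 to 4. Abundant genes without an estimate count as 0 in that total. They numbered 6 to 8 per control and 6, 5 and 6 in labelled libraries 2 to 4, but 0 in library 1. The share of library 1 is thus not like for like with the others.

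**Figure D3:**
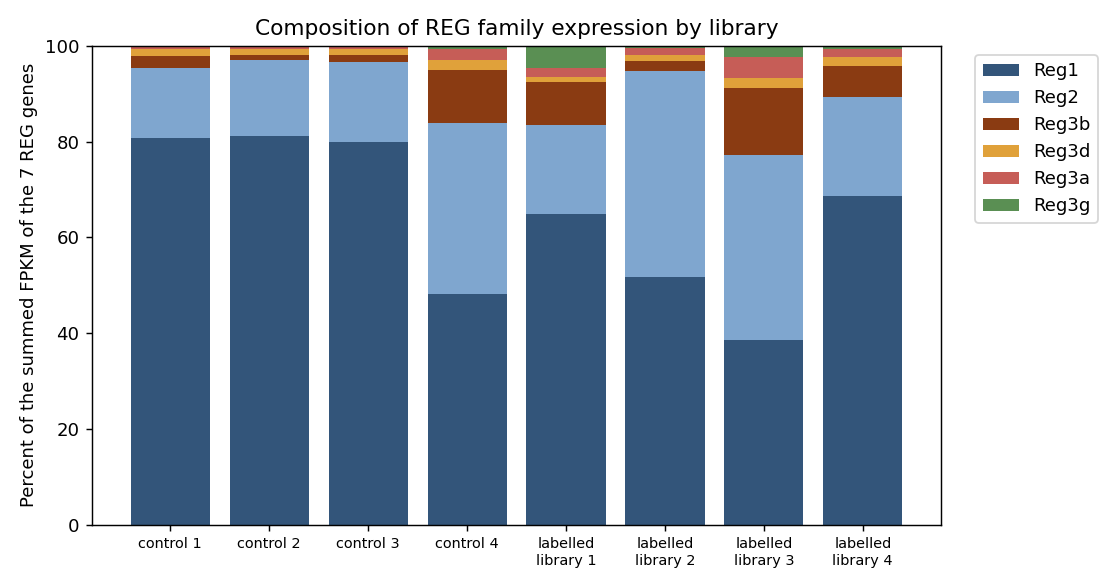
Percent of the summed FPKM of the 7 REG genes that each gene contributed in each library, stacked to 100% (Reg4 is too low to be seen and is not drawn). Reg1 fills 80.0% to 81.1% of the bar in controls 1 to 3 and 38.5% to 68.6% in control 4 and the labelled libraries.

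Set against the digestive enzymes of the same library, REG transcripts stood above the controls in some labelled libraries and within their range in others. Every tested member exceeded all controls in library 3, Reg1, Reg3a, Reg3b and Reg3g did so in library 1, Reg1 and Reg3g in library 4, and Reg2 alone in library 2. The log2 difference of Reg1 from its control mean exceeded the median difference of the 20 enzymes by 1.12, 0.02, 0.83 and 0.78 in labelled libraries 1 to 4, while the controls lay between -0.27 and 0.27. For Reg3g the excess was 5.80, 1.17, 5.29 and 2.46, against -0.75, -0.46, -1.04 and 2.16 in controls 1 to 4. For Reg3a it was 3.07, 1.78, 4.60 and 2.42, against -1.07, -1.49, -0.28 and 2.74. For Reg2 it was 1.20, 1.63, 2.72 and 0.92, against -0.87, -0.68, -0.12 and 1.57, and for Reg3b 3.10, 0.10, 4.18 and 2.18, against -0.46, -1.63, -0.83 and 2.82. For Reg3d it was 0.78, 0.37, 2.16 and 1.05, against -0.42, -0.69, -0.04 and 1.05, so that labelled library 4 and control 4 were equal to the digits given. In control 4 the enzymes themselves were not raised, with a median difference of -0.31. Enzymes lay on both sides of their median, so an excess over it is not particular to REG genes. The enzyme Prss2 kept within a mean absolute log2 difference of 0.21 from Reg1 over the 8 libraries. In whole tissue, fewer acinar cells and less RNA per acinar cell cannot be told apart.

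**Figure D4:**
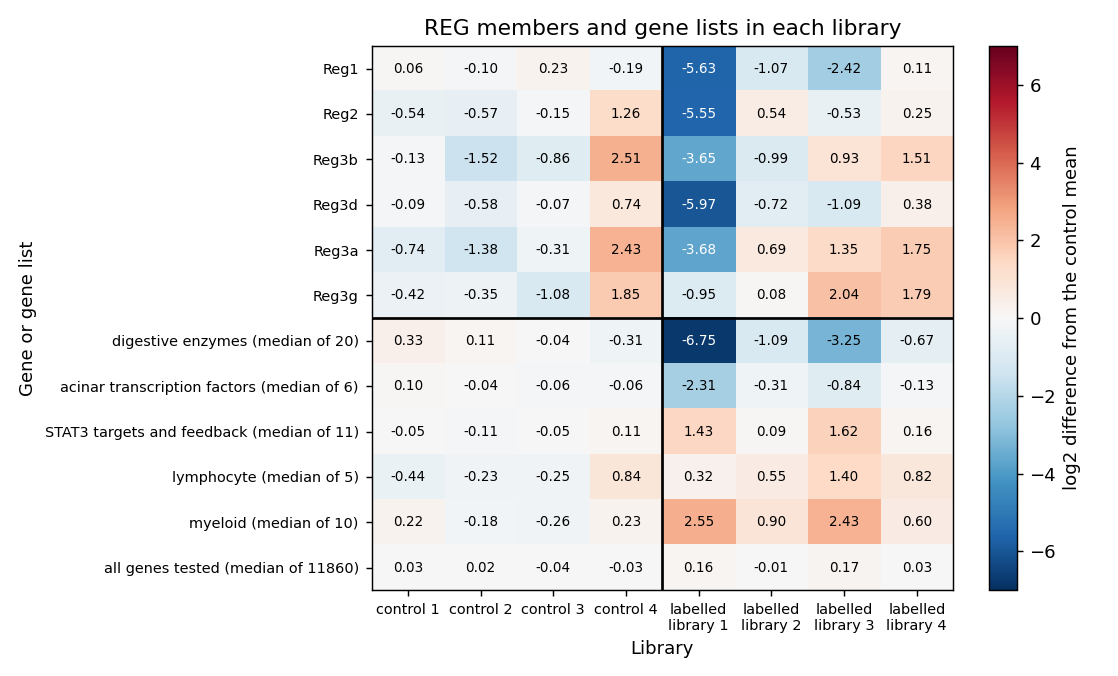
Log2 difference of each library from the control mean for the 6 tested REG genes and for the medians of 6 gene groups, the last being all 11860 genes tested; blue is lower and red is higher. Reg3a, Reg3b and Reg3g are positive in control 4 and in labelled libraries 3 and 4, while the enzyme median is negative in these 3 libraries.

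Of the cytokines known to induce Reg3 genes, few were measurable. Il22, Il17a and Il17f were listed at 0 in all 8 libraries. Il6 was listed at 0 in the 4 controls and labelled library 4 and stood at 0.208, 0.0727 and 0.29 rescaled FPKM in labelled libraries 1 to 3. The floor differs between libraries. For Reg4, 3 fragments would give 0.256 to 0.394 in controls, against 0.083 and 0.0917 in labelled libraries 1 and 3. A value of 0 thus does not show absence, here or among the low markers below. Of 12 cytokine genes only the gp130 ligand Ctf1 passed the expression minimum, at 1.44 ± 0.632 in controls and 0.967 ± 0.385 in labelled libraries (SD, n = 4 each; log2 -0.29, adjusted p = 0.429 in limma). The summed level of the 12 cytokines was 3.13, 2.58, 1.32 and 2.64 in controls 1 to 4 and 7.02, 1.61, 7.98 and 1.89 in labelled libraries 1 to 4, so libraries 1 and 3 lay above every control and libraries 2 and 4 within their range.

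Their receptors and kinases were measured in full, and 0 of 16 passed over all genes in limma, with 10 higher and 2 lower at an unadjusted p under 0.05, against 17.9% higher and 12.2% lower over all genes. The median log2 fold change was 0.47, against 0.10 over all genes. In this list and the next ones, the 2 genes of highest mean over the 8 libraries pooled are given, an order that need not hold within a group. Il11ra1, the IL-11 receptor chain, had the highest pooled mean, at 21.3 ± 3.72 in controls and 16.3 ± 4.75 in the labelled libraries (log2 -0.39, adjusted p = 0.267 in limma). The next by pooled mean was Tnfrsf1a, a TNF receptor, at 11.6 ± 2.01 and 17.9 ± 4.96 (SD, n = 4 each; log2 0.57, adjusted p = 0.141 in limma). The transcription factor gene Stat3 stood at 4.92, 5.07, 7.88 and 5.09 in controls 1 to 4 and at 15.6, 9.69, 10.3 and 7.18 in the labelled libraries (log2 0.77, adjusted p = 0.113 in limma). Il22ra1, the IL-22 receptor chain of epithelia, stood at 4.01, 3.14, 3.16 and 2.47 in controls and at 0.173, 2.66, 0.839 and 2.23 in labelled libraries 1 to 4 (log2 -0.89, adjusted p = 0.141 in limma). Stat3 and Il22ra1 were picked with their values known.

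STAT3 targets and feedback genes were highest in labelled libraries 1 and 3, while Reg3a, Reg3b and Reg3g were high in control 4 and in labelled libraries 3 and 4. Of 12 genes 11 were tested, 0 passed in limma, and 4 were higher and 0 lower at an unadjusted p under 0.05 (17.9% and 12.2% of all genes). The median log2 fold change was 0.76. The list's median difference was 1.43 and 1.62 in labelled libraries 1 and 3, and 0.09 and 0.16 in libraries 2 and 4. In control 4, where Reg3b was highest, it was 0.11. The 2 of highest pooled mean were Saa3, an acute phase protein (16.7 ± 3.67 in the controls, 31.7 ± 36.5 in the labelled libraries; log2 0.14, adjusted p = 0.913 in limma), and Lcn2, the siderophore-binding lipocalin 2 (1.34 ± 0.37 and 12.3 ± 13.5; SD, n = 4 each; log2 1.69, adjusted p = 0.200 in limma). The rank of Lcn2 rests on labelled libraries 1 and 3 (29.0 and 17.5). Saa3 was 85.2 in labelled library 3, where Reg3g was highest, and 2.78 in library 1. The STAT3 feedback inhibitor Socs3 was chosen after its values were seen. Controls 1 to 4 had 1.25, 0.981, 1.30 and 2.71 for it, and the labelled libraries, in order, 2.02, 1.00, 3.96 and 3.35. Its highest values fell in control 4 and labelled libraries 3 and 4, where Reg3g was also highest. Of the list's other genes, only Saa3 was highest in these same libraries, with 21.1 in control 4. Myc (4.15), Pim1 (1.37) and Cebpd (1.35) were instead lowest among the controls in control 4. The order of Socs3 thus does not stand for the list, and a link to Reg3g was not tested.

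Extl3, the proposed receptor, stood at 17.2, 20.2, 18.4 and 16.8 rescaled FPKM in controls 1 to 4 and at 4.27, 12.8, 5.59 and 19.7 in labelled libraries 1 to 4 (log2 -0.94, SE 0.41, adjusted p = 0.165 in limma). Its order over the labelled libraries was that of Reg1, and also that of the medians of the digestive enzymes, acinar transcription factors and granule proteins. Of the 5 exostosin genes 0 passed in limma, with 2 higher and 2 lower at an unadjusted p under 0.05 (17.9% and 12.2% of all genes) and a median log2 fold change of 0.22. Ext2, a heparan sulfate polymerase subunit and the next by pooled mean, had 5.47 ± 1.88 and 6.32 ± 0.524 (SD, n = 4 each; log2 0.22, adjusted p = 0.439 in limma).

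Acinar stress genes gave no call. Of 12 tested, 0 passed in limma, 6 were higher and 0 lower at an unadjusted p under 0.05 (17.9% and 12.2% of all genes), and the median log2 fold change was 0.78. Clu, the secreted chaperone clusterin, was 390 ± 35.7 in controls and 1129 ± 572 in labelled libraries (SD, n = 4 each; log2 1.42, adjusted p = 0.101 in limma). Nupr1, a stress gene of pancreatitis, was 1658, 862, 700 and 773 in controls 1 to 4 and 521, 774, 1749 and 1093 in the labelled libraries. Control 4 was thus not raised for Nupr1, or for Clu (359), while it was for the Reg3 genes.

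Among acinar genes, 0 of 20 digestive enzymes passed in limma (9 lower at an unadjusted p under 0.05, against 12.2% of all genes; median log2 fold change -2.97), and the groups did not overlap in 14, all lower, against 7.62% of all genes. The highest pooled means were those of Cela2a and Cela1, which encode elastases and had log2 fold changes of -3.90 and -4.23 (adjusted p = 0.137 and 0.141 in limma). Of 6 acinar transcription factors 0 passed and 2 were lower at an unadjusted p under 0.05, against 12.2% of all genes (median -0.97); Xbp1, a secretory regulator, had 191 ± 9.76 and 146 ± 108 and Bhlha15, which encodes MIST1, 60.3 ± 10.5 and 20.1 ± 20.4 (SD, n = 4 each; adjusted p = 0.363 and 0.141 in limma). Of 9 other granule proteins 0 passed and 6 were lower at an unadjusted p under 0.05, against 12.2% of all genes (median -3.02), with Clps, pancreatic colipase, which the enzyme list also holds, and Zg16, a zymogen granule lectin (log2 -3.49 and -3.59; adjusted p = 0.169 and 0.156 in limma). Reg1, with a log2 fold change of -2.25, was thus less negative than the medians of the enzyme and granule lists, and the difference was not tested. It is not particular to Reg1, as some members of these lists were less negative still. Among them were the enzymes Prss2 (-2.11) and Try4 (-1.97) and the granule genes Cuzd1 (-2.16) and Dmbt1 (-1.67). Of 12 secreted antimicrobial genes 6 were tested, 0 passed in limma, 2 were higher and 1 lower at an unadjusted p under 0.05 (17.9% and 12.2% of all genes), and the median was 0.70. The highest pooled mean beside Zg16 was that of Lyz2, a lysozyme of macrophages, at 77.9 ± 19.9 and 264 ± 154 (SD, n = 4 each; log2 1.59, adjusted p = 0.104 in limma).

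Markers of other tissues that make REG proteins were read in the same libraries. Intestinal markers summed to 0.702 to 1.28 rescaled FPKM in controls and 1.63 to 2.69 in the labelled libraries; 6 of the 12 (Alpi, Apoa4, Cdx2, Fabp1, Fabp2 and Sis) were listed at 0 in all 8 libraries. Stomach markers summed to 0.565 to 1.55 in controls and 1.01 to 3.62 in labelled libraries 1, 3 and 4, with Gkn1 and Gkn2 at 0 in all 8; the sum of 116 in library 2 was nearly all Pgc, which encodes a pepsinogen. Islet markers, 8 of 8 tested, summed to 559 to 1480 in controls and to 764 to 5975 in the labelled libraries, highest in labelled library 1 and lowest in control 4. Reg2 was lowest in labelled library 1 and highest in control 4, at the opposite ends of these islet sums. Duct markers, 6 of 7 tested, summed to 171 to 227 and 129 to 241, with none at 0 in every library.

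Immune markers moved with some of the Reg3 values, and their part in them was not tested. Lymphocyte markers, of which 5 of 8 were tested and none was at 0 in every library, summed to 4.41, 5.26, 6.48 and 16.9 in controls 1 to 4 and to 13.8, 13.1, 28.1 and 16.6 in labelled libraries 1 to 4, so that control 4 lay in the range of the labelled libraries, as it did for Reg3g and Reg3a to Reg3d ratios. Myeloid markers, 10 of 10 tested, summed to 108 to 168 in the controls (168 in control 4, 165 in control 1) and to 854, 269, 751 and 222 in labelled libraries 1 to 4. Fibroblast markers, 8 of 8 tested, summed to 206 to 284 in controls and 333 to 1253 in the labelled libraries, and adipocyte markers, 7 of 7 tested, to 74.0 to 220 and 372 to 485; no marker of these 3 lists was at 0 in every library. Among all marker lists 1 gene passed in limma, the adipocyte gene Cidec, a lipid droplet protein (1 of 7 adipocyte markers, against 0.219% of all genes higher). It stood at 4.15, 2.33, 5.62 and 7.90 in controls 1 to 4 and at 24.6, 22.6, 18.4 and 18.2 in labelled libraries 1 to 4 (log2 1.95, SE 0.29, adjusted p = 0.0363 in limma). Hepatocyte markers, 1 of 6 tested, summed to 8.61 to 16.3 and 2.33 to 15.0. The acinar markers, 9 of 9 tested, summed to 266225 to 362255 in controls and to 1389, 127630, 20016 and 152021 in labelled libraries 1 to 4, so acinar RNA was present in each library.

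The genes with the nearest profiles fell into different groups for different members. Likeness was the mean absolute difference, over the 8 libraries, of log2 differences from the control mean, among 9912 tested genes outside the family. Nearest to Reg1 were Prss2, a trypsinogen (0.21), and Erp27, an endoplasmic reticulum protein (0.23). Nearest to Reg3d were Dmbt1, a secreted scavenger receptor (0.49), and the trypsinogen Try10 (0.51), and the same 2 genes were nearest to Reg2, at 0.76 and 0.75. Nearest to Reg3a were the immunoglobulin genes Igh-V11 (0.88) and Ighm (0.93), and nearest to Reg3b were Igh-V11 (0.86) and the small nucleolar RNA Snord15b (0.87). Nearest to Reg3g were Fcna, the lectin ficolin A (0.48), and the immunoglobulin segment Igkv4-68 (0.55). Within the family Reg3a and Reg3b were nearest to each other (0.47), nearer than any gene outside it, as were Reg2 and Reg3d (0.43), while Reg1 was nearer to trypsinogen than to its nearest relative by profile, Reg3d (0.52). Snord15b was listed at 0 in 6 libraries.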

How the data were processed

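Per the labels' protocols, TruSeq libraries were made from poly(A) RNA (integrity numbers 7.1 to 8.8) and read on a Genome Analyzer IIx. Tools in the submitters' processing notes are TopHat2 2.0.4 with Bowtie, Cufflinks 2.0.1 and CASAVA 1.8, and builds are mm9 and NCBIM37; the sources used here do not give read length, strand or scaling option. The authors deposited gene-level FPKM with interval bounds and a status per sample, 36448 entries each; 14 IDs on several entries were summed. Values were divided by 100000. The 8 genes with status HIDATA in any sample, listed at 0, were left out; 28 tested genes had a failed estimate in some sample and were kept as listed. Implied fragments are the square of 2 × FPKM over the upper half-width of the interval, and cover counting error only. Starts were raised by 1.

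Genes with a mean of at least 1 (11860) were tested on log2(rescaled FPKM + 1) by limma 3.58.1 (R 4.3.3), with an intensity trend, two-sided, Benjamini-Hochberg adjusted over all genes; fold changes on that scale understate those of low genes. It was tested on simulated data with the same spread in both groups. Here Reg1 and the digestive enzymes spread more widely in the labelled libraries than in controls. The simulation thus does not show how limma performs under such unequal spread. Exact permutation tests used scipy 1.17.1. The rule for named genes took all members, Gata6, passing list genes or else the 2 most abundant, the 2 nearest profiles, leaving out predicted genes, and chromosome neighbours. Lists came from textbook knowledge. Members and lists were chosen with earlier results of these data known. Alternatives were 2 pseudocounts, 2 expression minima, 4 scalings, 2 variance options and leaving out each library. Others were the title prefix as a covariate (BKD against ASK and BSH pooled), the BKD titles alone, and the ASK and BSH titles pooled.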

Additional observations from a re-analysis of the deposited data

Results flagged for a closer look

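Control 4 stood apart from the other controls in 4 of the 6 measurable REG genes. Its level was 21236 rescaled FPKM for Reg2, 1418 for Reg3a, 6584 for Reg3b and 325 for Reg3g, and in each the gap to the nearest other control, divided by the range of the 4 controls, was above Dixon's critical value at 95% for 4 samples (0.869, 0.916, 0.894 and 0.900). Chance marks about 5% of groups, and 12 groups were examined here (6 genes in 2 groups of 4), of which these 4 were marked. All 4 come from 1 library, so they are not independent of each other. On the log2 scale none of the 12 was marked, with 0.773, 0.719, 0.656 and 0.750 for the same 4 genes. The digestive enzyme median of control 4 was -0.31 from the control mean, and its lymphocyte markers summed to 16.9 against 4.41 to 6.48 in the other controls.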

How the results depend on the processing

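No REG gene passed the threshold in any of the 22 other settings, of which the fit without labelled libraries 1 and 3 was added after the data were seen. Reg1 and Reg3d were negative in all 22. The lowest adjusted p of Reg1 was 0.0734 in limma, without labelled library 4. There its log2 fold change was -3.04 (95% interval -5.53 to -0.54), in a fit that called 21.6% of all genes. Signs turned for Reg2 under implied fragment totals (0.07), among titles with ASK or BSH (0.36) and without labelled libraries 1 and 3 (0.40); for Reg3b under quantile normalization (0.29), equal sum (0.45), implied totals (0.84) and without labelled libraries 1 and 3 (0.26); for Reg3a under median-ratio scaling (-0.08, also in the permutation test); and for Reg3g among titles with ASK or BSH (-0.06). Leaving out 1 library at a time gave -3.04 to -1.13 for Reg1, -1.94 to 0.09 for Reg2, -0.54 to 1.27 for Reg3a, -1.23 to 0.49 for Reg3b, -2.59 to -0.48 for Reg3d and 0.31 to 1.36 for Reg3g. In single fits, values that turned were Reg2 without labelled library 1 (0.09), Reg3a without control 1 (-0.22), 2 (-0.43) or 3 (-0.07) or without labelled library 2 (-0.19), 3 (-0.41) or 4 (-0.54), and Reg3b without control 4 (0.29) or labelled library 1 (0.49). The 49 genes called over all genes (26 higher, 23 lower) became 30 after quantile normalization (12 higher, 18 lower), 20 under equal sum (20 higher, 0 lower), 6 under implied totals (6 higher, 0 lower), 5 with the title prefix as a covariate, 16 in the BKD titles, 91 among titles with ASK or BSH, 13 without labelled libraries 1 and 3, and 10 to 2566 with 1 library left out, the most without labelled library 4; the cause was not tested. No paired analysis was possible because the labels pair no samples.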
